A study of Caenorhabditis elegans with 8 samples.

Results

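Cysteine cathepsins are proteases of the papain family, which use a catalytic cysteine to cut other proteins. The 10 cathepsin genes described here were chosen by name from the table of 46928 C. elegans genes, with earlier results of the same libraries known, including the comparison of Urolithin A with control and its values within replicates 1 and 2 and within replicates 3 and 4. They are cpr-1 (CELE_C52E4.1), cpr-2 (CELE_F36D3.9), cpr-3 (CELE_T10H4.12), cpr-4 (CELE_F44C4.3), cpr-5 (CELE_W07B8.5), cpr-6 (CELE_C25B8.3), cpr-8 (CELE_W07B8.1), cpl-1 (CELE_T03E6.7), cpz-1 (CELE_F32B5.8) and cpz-2 (CELE_M04G12.2). The cpr genes are cathepsin B-like, cpl-1 encodes a cathepsin L and the cpz genes are cathepsin Z-like. All 10 passed the filter on low counts, as did 13720 genes in all.

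Polyadenylated RNA was sequenced in 8 libraries of whole wild-type N2 nematodes fed the bacterial strain OP50. In 4 populations the growth medium held 50 µM Urolithin A (UA), a gut microbial metabolite of ellagitannins that is studied as an inducer of mitophagy. The other 4 populations were grown without it and serve as the control, with no vehicle named in the labels. The comparison asks how gene expression differs between animals grown with and without UA. Both groups carry the wild-type genotype and no transgene. Each library is a pool of animals, and the age at harvest is given as day 1 of adulthood in the methods and as day 4 in the deposited design.

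Cathepsins are made as inactive precursors with a propeptide that is removed in acidic compartments. In animal cells most of them work in lysosomes, where they break down proteins delivered by endocytosis and autophagy, and some are secreted. In C. elegans the intestine is both the digestive organ and a tissue rich in lysosome-related gut granules, and several cathepsin B-like genes are known as gut proteases. The libraries came from whole animals and cannot place a transcript in the gut, so the genes are called cysteine cathepsin genes throughout. In such bulk samples, fewer cells of a type and less RNA per cell cannot be told apart.

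The 8 libraries held between 41890058 and 43055719 counted fragments, and the 10 genes took between 0.286% and 0.504% of them. Levels are given as CPM, the count relative to the total of its library after scaling by the TMM factor, or as CPM per kilobase of exon where genes are compared with each other. Replicates 3 and 4 stood apart from replicates 1 and 2 in both groups, although the labels name no batch. Controls 3 and 4 averaged at least 1.5 times controls 1 and 2 for 3.15% of the 13720 genes and were lower by that factor for 3.21%. All 9 intestinal marker genes were detected, and so were markers of germ line, muscle, pharynx and neurons. Summed sperm markers reached only 0.614 to 1.7 CPM. Of the hypodermal markers, the collagen genes rol-6 and bli-1 were near 0, whereas col-19 averaged 89.8 CPM and dpy-7 2.61 CPM.

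The genes are dispersed. In the WBcel235 assembly 8 of the 10 are on chromosome V, cpr-6 is on the X chromosome and cpz-1 is on chromosome I. The only close pair is cpr-5, on the minus strand of chromosome V from 1132598 to 1134036, and cpr-8, on the plus strand from 1134602 to 1139182. Their starts face each other across 565 bases. The next nearest are cpr-2 (minus strand, 16532936 to 16534100) and cpl-1 (minus strand, 16592572 to 16595346), which are 58471 bases apart. The remaining genes on chromosome V are cpr-4 (plus strand, 6614674 to 6615851), cpr-1 (plus strand, 11975551 to 11976756), cpz-2 (plus strand, 13381189 to 13383077) and cpr-3 (minus strand, 15296834 to 15298700). On the X chromosome cpr-6 runs on the plus strand from 6607207 to 6609045.

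The genes differ in exon structure. The exons of cpr-4 form 2 blocks, those of cpr-1, cpr-2 and cpr-5 form 3 and those of cpr-6 form 8. The coding sequence ran from 918 bases in cpz-1 to 1401 bases in cpz-2. The longest intron was 2108 bases in cpr-8, against 49 bases in cpr-4. 3 of the members overlap an annotated gene on the other strand, and no source states whether the counting used strand. For cpz-2 that gene is gcy-34, which shares 59 exon bases with it and never exceeded 8 counts. For cpr-4 it is a piRNA with 0 counts, and for cpz-1 an snRNA that shares 0 exon bases. None of the 18 tested neighbour genes outside the 10 passed the thresholds of the UA comparison.

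**Figure D1:**
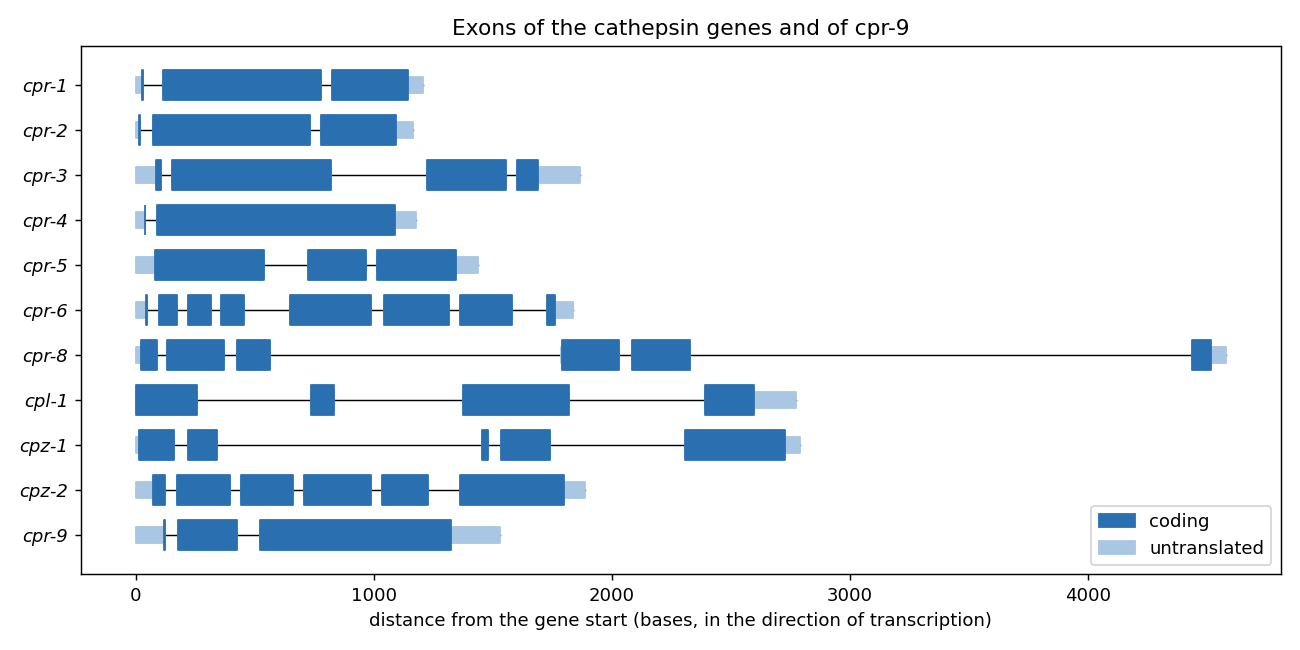
Exons of the 10 cathepsin genes and of the related gene cpr-9, drawn from each gene start in the direction of transcription, with the distance in bases on the x axis, coding parts as tall dark boxes, untranslated parts as short light boxes and introns as lines. The genes range from the compact cpr-4, with an intron of 49 bases, to cpr-8, with an intron of 2108 bases.

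In control animals the transcript levels of the 10 genes spanned more than 2 orders of magnitude per kilobase. cpr-1, a gut cysteine protease, was the highest at 1065 ± 424 CPM per kilobase (SD, n = 4), and it ranked 76 among all genes by mean CPM. cpr-4, cpr-6 and cpl-1 followed at 546 ± 83.5, 541 ± 87 and 516 ± 84.1 CPM per kilobase (SD, n = 4 each). The control values of these 3 genes overlapped, so their order is not beyond the spread between libraries. cpr-5 at 236 ± 71.4 and cpz-1 at 185 ± 28.4 CPM per kilobase also overlapped. Below them stood cpz-2 at 45.7 ± 1.1 and cpr-3 at 27.8 ± 1.5 CPM per kilobase, separated from each other in every control library. In UA libraries 1 and 2 that order was turned, with cpr-3 at 57.3 and 51.3 and cpz-2 at 45 and 46.5 CPM per kilobase. At the bottom cpr-8 at 6.19 ± 0.252 and cpr-2 at 5.57 ± 4.8 CPM per kilobase overlapped again. The UA group had the same order of means, as did the control group in TPM, which scales the same per-kilobase values to the sum over all genes.

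Among the cathepsin B-like genes, cpr-1 showed how far the libraries differed within a group. Its level was 805, 714, 1635 and 1436 CPM in controls 1 to 4 and 979, 972, 1828 and 1609 CPM in UA libraries 1 to 4. Replicates 3 and 4 were high in both groups and the groups overlapped, while each UA library lay above the control of its own number. The mean of controls 3 and 4 was 2.02 times that of controls 1 and 2, and the ratio in the UA libraries was 1.76. Over all 8 libraries the log2 fold change with UA was 0.23 (SE 0.30).

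cpr-2 had the lowest mean of the 10 in both groups and the largest coefficient of variation, although in controls 3 and 4 it was above cpr-8. Its counts were 70, 62, 450 and 410 in controls 1 to 4 and 26, 36, 200 and 158 in UA libraries 1 to 4. In CPM these are 1.63, 1.41, 10.8 and 9.85 in the controls and 0.592, 0.83, 4.81 and 3.74 with UA. Every UA library was below the control of its number, yet the groups overlapped because replicates 3 and 4 were high in both. Controls 3 and 4 averaged 6.81 times controls 1 and 2, and the UA libraries showed a ratio of 6.01. The exact Poisson 95% interval, which covers counting error only, ran from 1.27 to 2.06 CPM in control 1 and from 0.387 to 0.867 CPM in UA library 1. For the third replicates it ran from 9.86 to 11.9 CPM in the control and from 4.17 to 5.52 CPM with UA. The log2 fold change was -1.25 (SE 0.80) over all libraries. With the replicate number as a block it was -1.21 (SE 0.16), and cpr-2 then passed the thresholds as lower, an adjusted p of under 0.05 included. With condition alone cpr-2 did not pass them. The contrast was known when the genes were chosen, so the pass with the block is a description.

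cpr-3 departed from the other members in where its UA value was high. The controls lay close together at 35.8, 37.4, 40.7 and 38.3 CPM. With UA the level was 78.5 and 70.2 CPM in replicates 1 and 2 but 40.5 and 43.4 CPM in replicates 3 and 4. UA library 3 was just below control 3, so the groups overlapped by that library. The log2 fold change was 0.61 (SE 0.19) over all libraries, and it passed the thresholds in 8 of 8 fits with 1 library left out, at 0.43 to 0.75. It was 1.03 (SE 0.07) in replicates 1 and 2 and 0.09 (SE 0.08) in replicates 3 and 4. The difference between the last 2 values was -0.94 (SE 0.11). cpr-3 was the 1 member among the 11 genes (0.0802% of 13720) for which this difference passed an adjusted p threshold of 0.05, and in 5 of 8 fits with a library left out it did not pass. The values within the replicate pairs helped to choose the genes, so the count is a description.

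cpr-4 encodes a cathepsin B-like protease that is known to be secreted. Its level was 556, 519, 716 and 676 CPM in controls 1 to 4 and 647, 696, 849 and 924 CPM in the UA libraries. Each UA library exceeded its control, by ratios of 1.16, 1.34, 1.19 and 1.37, and the groups overlapped between the pairs of replicates. The log2 fold change was 0.34 (SE 0.13), with 0.33 in replicates 1 and 2 and 0.35 in replicates 3 and 4. With the replicate number as a block it was 0.34 (SE 0.05), and cpr-4 then also passed an adjusted p threshold of 0.05. The contrast was known when the genes were chosen, so that pass is a description. Without the block cpr-4 no longer passed the thresholds on fold and unadjusted p when control 1, control 2, UA library 3 or UA library 4 was left out. Its log2 fold changes were between 0.25 and 0.42 over all 8 such fits.

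cpr-5 differed mostly between the replicate pairs. It measured 215, 204, 362 and 355 CPM in the controls and 199, 215, 349 and 343 CPM with UA. Replicates 3 and 4 were above replicates 1 and 2 by ratios of 1.71 and 1.67, and the log2 fold change with UA was -0.04 (SE 0.24). The neighbouring and oppositely oriented cpr-8 did not share this. Its values were 7.11, 6.5, 6.6 and 6.87 CPM in the controls and 7.49, 5.97, 7.45 and 7.24 CPM with UA, a log2 fold change of 0.06 (SE 0.11). The gene on the other side of cpr-5, W07B8.4, did not exceed 0.663 CPM in any library.

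cpr-6 was at 635, 551, 753 and 789 CPM in the controls and 734, 682, 809 and 894 CPM in the UA libraries. Each UA library lay above the control of its number, within groups that overlapped. Its log2 fold change was 0.19 (SE 0.12), with 0.27 in replicates 1 and 2 and 0.14 in replicates 3 and 4.

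The cathepsin L gene cpl-1, which is needed for embryonic development and yolk processing, measured 557, 521, 629 and 748 CPM in the controls and 654, 593, 849 and 809 CPM with UA. Its log2 fold change was 0.24 (SE 0.14). The cathepsin Z gene cpz-1, known for its part in molting, was at 168, 154, 199 and 215 CPM in the controls and 186, 176, 258 and 245 CPM with UA, with a log2 fold change of 0.23 (SE 0.14). For both genes each UA library lay above its own control and the groups overlapped. cpl-1 passed the thresholds as higher when control 4 or UA library 2 was left out, and cpz-1 when UA library 2 was left out. cpz-2 was the steadiest member, at 72.1, 69.4, 73.4 and 70.8 CPM in the controls and 70.4, 72.7, 84 and 75.9 CPM with UA, a log2 fold change of 0.08 (SE 0.06). Its coefficient of variation over the controls was 2.41%, against 86.2% for cpr-2.

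**Figure D2:**
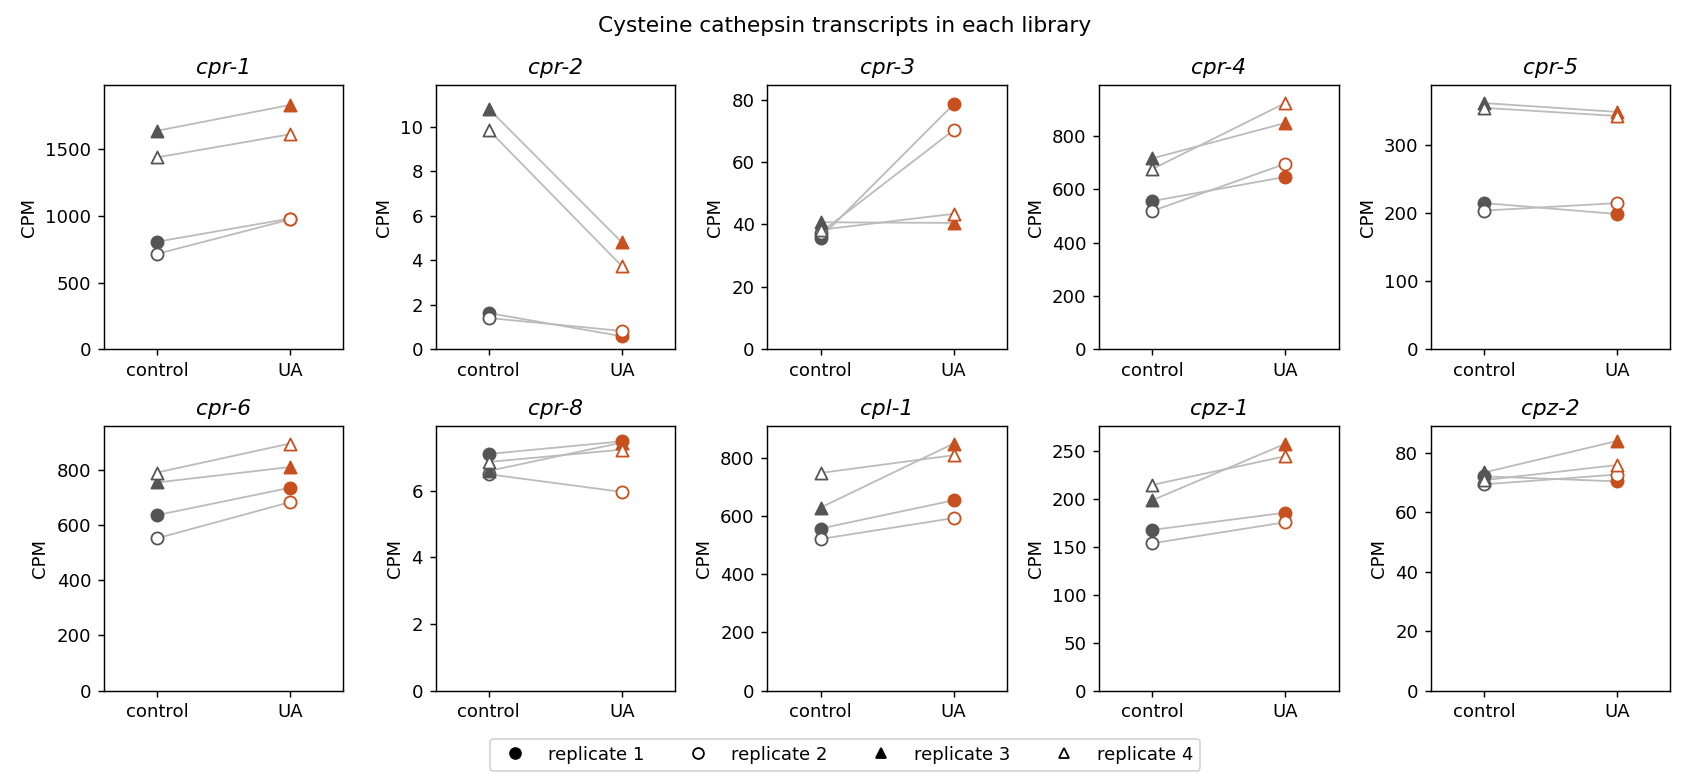
CPM of each cathepsin gene in the 4 control and 4 UA libraries, 1 panel per gene with its own linear axis from 0, where grey lines join libraries of the same replicate number, circles are replicates 1 and 2 and triangles are replicates 3 and 4. The triangles lie far above the circles for cpr-1, cpr-2 and cpr-5, and cpr-3 rises from 35.8 to 78.5 CPM in replicate 1 but not in replicate 3, at 40.7 and 40.5 CPM.

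A gene was called where its fold change exceeded 1.2 and its p before adjustment was below 0.05 in edgeR's quasi-likelihood test. By these, 2 of the 10 genes were higher with UA, cpr-3 and cpr-4, beside 4.12% of all genes tested, and 0 were lower, beside 1.55%. With condition alone in the model, no member reached an adjusted p under 0.05 in edgeR or in DESeq2, where edgeR called 0.0948% of all genes. With either tool 2 members had an unadjusted p under 0.05, and the share of all genes at that p alone was not counted. The median log2 fold change of the 10 was 0.21, with 8 above 0, and that of all genes tested was -0.003. No member had its 4 UA libraries all above the 4 controls (3.06% of all genes) or all below (1.72%). Because this contrast was among the results that led to the choice of these genes, nothing is read from the counts.

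Within the pairs of replicates the called members differed. In replicates 1 and 2 alone, cpr-1, cpr-3, cpr-4 and cpr-6 were called higher and cpr-2 lower, where 7.05% of all genes were higher and 4.73% lower. In replicates 3 and 4 alone, cpr-4, cpl-1 and cpz-1 were called higher and cpr-2 lower, where the shares were 3.88% and 1.66%. cpr-4 and cpr-2 were thus called in both. With the replicate number as a block over all 8 libraries, cpr-3 and cpr-4 were called higher and cpr-2 lower, where 5.5% of all genes were higher and 2.47% lower. At an adjusted p under 0.05, edgeR with the block called cpr-2 and cpr-4, beside 0.838% of all genes, and 7 members had an unadjusted p under 0.05. A term for the 2 pairs of replicates in place of the block called cpr-2, cpr-4 and cpz-1, beside 1.6%. At that adjusted p replicates 1 and 2 alone called cpr-1, cpr-3 and cpr-4, beside 3.98%, and replicates 3 and 4 alone called 0 members, beside 0.19%, with 4 members at an unadjusted p under 0.05. The share of all genes at an unadjusted p alone was not counted, so nothing is read from the counts of 7 and 4 members. The genes were chosen with these values known, so all of these calls are a description. A call in 1 pair of replicates and not in the other is no test of their difference, which passed the threshold for cpr-3 and for none of the other 9 members.

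**Figure D3:**
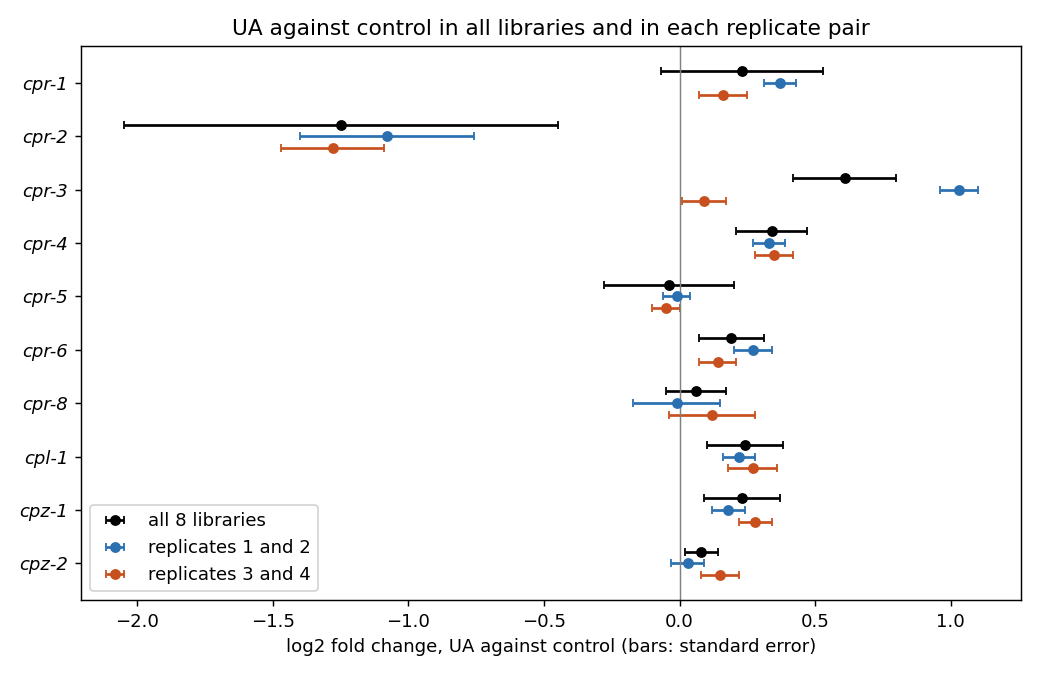
Log2 fold change of UA against control for each cathepsin gene, with bars of 1 standard error, in all 8 libraries (black), in replicates 1 and 2 (blue) and in replicates 3 and 4 (orange). cpr-3 is at 1.03 in replicates 1 and 2 and 0.09 in replicates 3 and 4, whereas cpr-4 is at 0.33 and 0.35 and cpr-2 at -1.08 and -1.28.

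The pairs of replicates also differed within each condition. In the controls cpr-1, cpr-2 and cpr-5 were at least 1.5 times higher in replicates 3 and 4 than in replicates 1 and 2. For cpr-4, cpr-6, cpl-1 and cpz-1 the ratio was between 1.28 and 1.3, and for cpr-3, cpr-8 and cpz-2 it was between 0.989 and 1.08. The UA libraries gave nearby ratios except for cpr-3, where it was 0.564. Summed intestinal markers moved the same way in the controls, with a ratio of 1.54, but in the UA libraries their ratio was 1.14. The marker act-5 weighed heavily in these sums. It measured 82.4, 71.4, 142 and 131 CPM in the controls and 128, 141, 114 and 106 CPM with UA. vha-6, of similar level, measured 94.9, 87.4, 151 and 153 CPM in the controls and 91, 87.4, 142 and 128 CPM with UA. Among the UA libraries act-5, elt-2 and elt-7 were highest in library 2, and the remaining markers in library 3 or 4. The ratio of the sum thus does not describe the markers as a set. The part of the intestinal markers in the cathepsin values was not tested.

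**Figure D4:**
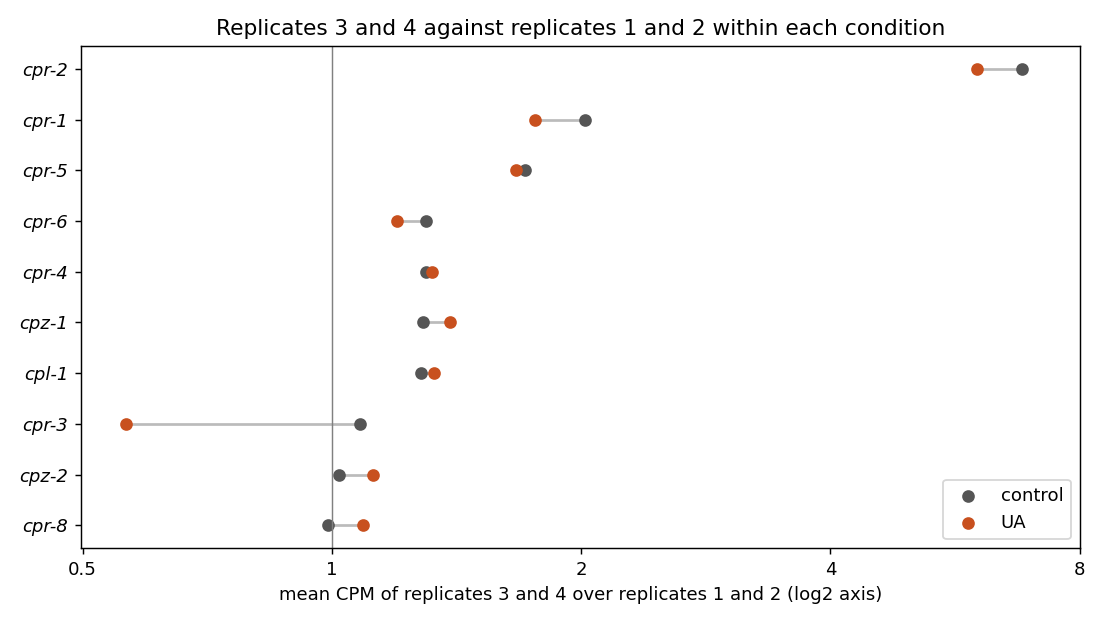
Mean CPM of replicates 3 and 4 divided by that of replicates 1 and 2 for each cathepsin gene, on a log2 axis, in the control (grey) and the UA libraries (orange). The ratio is 6.81 and 6.01 for cpr-2, and for cpr-3 it is 1.08 in the controls but 0.564 with UA. The remaining genes have nearby ratios in both groups.

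Summed over the 10 genes the level was 3052, 2778, 4426 and 4346 CPM in controls 1 to 4 and 3556, 3483, 5078 and 4955 CPM in UA libraries 1 to 4. Each UA library was above its own control, and the groups overlapped. The ratio of the means was 1.17 over all libraries, 1.21 in replicates 1 and 2 and 1.14 in replicates 3 and 4. Per kilobase, cpr-1 made up 28.3, 27.6, 39.2 and 35.2% of the summed level in the controls and 29.5, 29.9, 38.1 and 34.5% with UA, so its share followed the replicate pairs. cpr-3 held 0.99, 1.14, 0.767 and 0.739% in the controls and 1.86, 1.7, 0.665 and 0.734% with UA. The share of cpr-5 was between 6.76 and 7.79% in the controls and between 5.38 and 6.58% with UA, which do not overlap. A share also depends on the other genes in the sum. The log2 fold change of cpr-5 in CPM was -0.04 (SE 0.24), while the sum had the ratio of 1.17. How often shares of other genes separate in this way was not counted. Without cpr-1 in the sum the shares of cpr-5 overlap, at 9.43, 9.76, 12.8 and 12% in the controls and 7.63, 8.43, 10.5 and 10.1% with UA. Each UA share was still below that of its own control. These shares of cpr-5 were noticed after their values were seen.

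**Figure D5:**
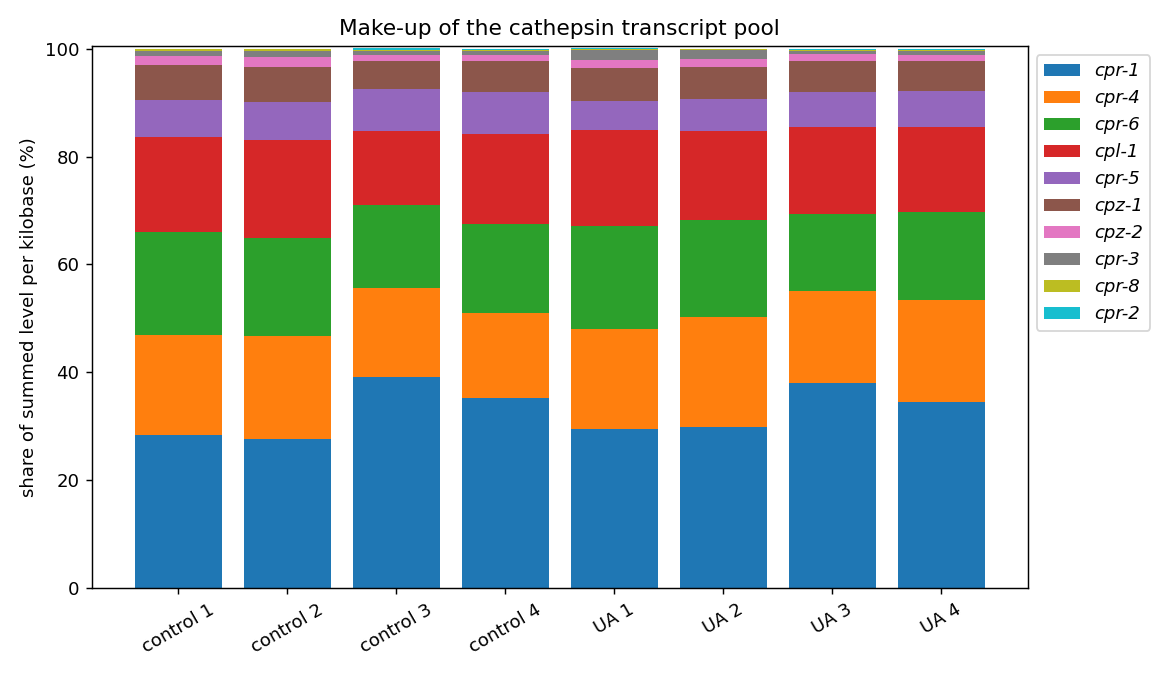
Share of each cathepsin gene in the summed level per kilobase of the 10 genes, in percent, with 1 stacked bar for each library. cpr-1 takes 27.6 to 29.9% in replicates 1 and 2 and 34.5 to 39.2% in replicates 3 and 4, and cpr-4, cpr-6 and cpl-1 take most of the rest.

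The shape of each profile was compared with that of every other gene by the root mean square difference of centred log2 CPM over the 8 libraries. Among the 6946 genes with a mean of at least 10 CPM outside the 10, the nearest to cpr-5 was aco-1, a cytosolic aconitase gene, at 0.0241. aco-1 measured 91.3, 85.1, 154 and 156 CPM in the controls and 85.7, 93.3, 146 and 145 CPM with UA, thus high in replicates 3 and 4 of both groups. The nearest to cpr-3 was tag-120 at 0.0928, with 21.3, 21.5, 24.6 and 21.6 CPM in the controls and 44.3, 45.1, 26.7 and 28.9 CPM with UA. Its highest values, like those of cpr-3, were in UA libraries 1 and 2, but its UA libraries 3 and 4 were also above all 4 controls. The nearest to cpr-1 was C14C6.2 at 0.0863, to cpr-4 cest-25 at 0.049, to cpr-6 irg-7 at 0.0402 and to cpl-1 alh-8 at 0.0455. For cpz-1 it was klo-1 at 0.0494, for cpz-2 Y41C4A.29 at 0.0337 and for cpr-8 Y37E11AM.3 at 0.0494. The nearest to cpr-2 was C50B6.7 at 0.366, the largest of these distances. The distance is not scaled to how much a gene varied. The centred values of cpr-2 had a root mean square of 1.45, against 0.104 for cpr-8. C50B6.7 measured 9.77, 7.78, 30.4 and 38.3 CPM in the controls and 4.23, 3.97, 26.1 and 17.7 CPM with UA. Among the 10 themselves cpl-1 and cpz-1 were the closest, at 0.0456. The 8 libraries share their differences between replicate pairs, and likeness is given as a description with no test.

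Of the related cysteine protease genes outside the 10, cpr-9 (CELE_F57F5.1) and tag-196 (CELE_F41E6.6) were examined. cpr-9 lies on the plus strand of chromosome V from 12003053 to 12004584, 26296 bases from cpr-1. It measured 423, 392, 497 and 489 CPM in the controls and 632, 566, 598 and 637 CPM with UA. All 4 UA libraries were above all 4 controls, as for 3.06% of all genes tested. The log2 fold change was 0.43 (SE 0.08), past the thresholds on fold and unadjusted p, with an adjusted p of 0.121 in edgeR's quasi-likelihood test. With the replicate number as a block the log2 fold change was 0.44 and edgeR's adjusted p was 0.0159, and DESeq2 gave an adjusted p of 0.00031. When each library was left out in turn edgeR's adjusted p was 0.0986 to 0.348 and cpr-9 passed the thresholds in 8 of 8 fits. Per kilobase its control level was 326 CPM, between those of cpl-1 and cpr-5. tag-196, a cathepsin F-like gene, had a log2 fold change of 0.20 with an adjusted p of 0.826 in edgeR, and it passed the thresholds when UA library 2 was left out.

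The inhibitors of these proteases did not pass the thresholds with all 8 libraries. Of the 2 cystatin genes, cpi-1 measured 217, 207, 75.5 and 105 CPM in the controls and 131, 142, 98.4 and 90.9 CPM with UA. It was high in controls 1 and 2, opposite to cpr-1 and cpr-2, and its log2 fold change was -0.39 with an adjusted p of 0.856 in edgeR. Without control 3 it passed the thresholds as lower. cpi-2 had a log2 fold change of 0.08 with an adjusted p of 0.88 in edgeR.

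Of 8 other lysosomal genes 0 passed the thresholds in either direction, beside 4.12% of all genes tested as higher and 1.55% as lower. Their median log2 fold change was -0.03. The cathepsin D-like aspartyl protease genes had log2 fold changes of -0.13 (SE 0.23) for asp-1, -0.22 (SE 0.19) for asp-3 and 0.21 (SE 0.06) for asp-4. The difference between these genes was not tested. For 2 of the 8, asp-4 and scav-3, all UA libraries were above all controls, as for 3.06% of all genes tested. Their fold changes were 1.16 and 1.12, and edgeR's adjusted p was 0.327 and 0.444. nuc-1, a lysosomal deoxyribonuclease gene, was below its own control in 4 of 4 pairs with a log2 fold change of -0.25. Its adjusted p in edgeR was 0.921, with the replicate number as a block it was 0.0304 and with 1 library left out it was 0.904 to 0.986.

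Of 7 transcription factor genes of the gut and lysosome, 3 passed the thresholds as higher with UA and 0 as lower. Of all genes tested 4.12% passed as higher and 1.55% as lower. The list was chosen with earlier results of these data known, so nothing is read from the count. elt-2, the GATA factor of the intestine, measured 4.46, 4.73, 6.55 and 6.54 CPM in the controls and 8.56, 9.87, 8.7 and 6.91 CPM with UA. All its UA libraries were above all controls, as for 3.06% of all genes tested. Its log2 fold change was 0.61 (SE 0.17) with an adjusted p of 0.343 in edgeR. DESeq2 gave an adjusted p of 0.0403, edgeR with the replicate number as a block gave 0.202, and edgeR with each library left out gave 0.304 to 0.703. The log2 fold change was 1.01 in replicates 1 and 2 and 0.25 in replicates 3 and 4, a difference of -0.75 with an adjusted p of 0.352 in edgeR. mxl-3, a repressor of lysosomal lipase genes, had a log2 fold change of 0.49 with an adjusted p of 0.606, and pqm-1 had 0.34 with 0.422, both in edgeR. mxl-3 no longer passed the thresholds without control 2, control 3, UA library 3 or UA library 4, and pqm-1 did not without control 3. hlh-30, the nematode TFEB gene, had a log2 fold change of 0.21 with an adjusted p of 0.817 in edgeR.

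Tissue markers were read beside these values, where 4.12% of all genes tested passed as higher and 1.55% as lower. Of the 9 intestinal markers 1 passed, elt-2, and their summed level was 250.4 to 408 CPM in the controls and 317 to 377 CPM with UA, with none of them at 0. The ratio of UA to control of this sum was 1.23 in replicates 1 and 2 and 0.906 in replicates 3 and 4. In replicates 1 and 2 the ratio was 1.75 for act-5. It was 2.01 for elt-2 and 1.52 for elt-7, whose means were only 7.04 and 5.58 CPM. For ges-1, ifb-2, pept-1, vha-6, nhx-2 and pho-1 it was between 0.887 and 1.02, so the sum does not describe the markers as a set. The intestinal actin gene act-5 was like cpr-3 in having its UA excess in replicates 1 and 2, with log2 fold changes of 0.82 and -0.31, a difference of -1.12 and an adjusted p of 0.0106 in edgeR. Of 6 germ line and oocyte markers 0 passed, and their summed level was 6093 to 6417 CPM in the controls and 5919 to 6298 CPM with UA. None of the 3 body wall muscle, 2 pharynx and 3 neuron markers passed. spe-11 was the 1 sperm marker higher with UA, at a mean of 0.571 CPM against 0.14 CPM and an adjusted p of 0.239 in edgeR, while gsp-3 and gsp-4 were near 0. The 4 sperm markers summed to 0.614 to 0.93 CPM in the controls and 1.07 to 1.7 CPM with UA. col-19, a hypodermal collagen gene, was lower with a log2 fold change of -0.54 and an adjusted p of 0.558 in edgeR, and the 4 hypodermal markers summed to 82.5 to 121 CPM in the controls and 55.5 to 103 CPM with UA. col-19 did not pass without control 1, control 4, UA library 1 or UA library 2. The part of these markers in the cathepsin values was not tested.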

How the data were processed

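Whole-animal RNA was sequenced as stranded poly(A) DNBSEQ libraries. Per the methods and labels, the authors aligned reads to WBcel235 with HISAT2 and counted fragments per RefSeq gene with featureCounts 1.6.2. The deposited values are raw counts beside an exon length per gene, an other kind of value that the authors deposited for each gene. The authors tested UA against control with DESeq2, with no covariate named, and condition alone was modelled here.

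The 46928 genes were filtered with filterByExpr and 13720 were tested with edgeR 4.0.16 (TMM, quasi-likelihood F test, R 4.3.3), with Benjamini-Hochberg adjustment over all of them. Of the 46928, 24320 had no counts. The fold and p thresholds of the call are those of the methods. DESeq2 1.42.0 was an alternative. Other alternatives were its size factors, no filter, a replicate block, a term for replicates 1 and 2 against 3 and 4, each library left out and each replicate pair alone. The scripts were tested on simulated data. Library totals are in the report, and p-values measure the spread between separately harvested populations. With condition alone that spread includes the difference between replicates 1 and 2 and replicates 3 and 4, which the block and the pair term take up. For cpr-1 the SE was 0.30 with condition alone and 0.06 with the block.

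The members and the gene lists were chosen with earlier results of these data known. All 10 members were named. Of the other lists, each gene past the thresholds was named, and for likeness the 1 nearest gene per member with a mean of at least 10 CPM (prior count 2). Genes with close paralogues may share reads. Replicate numbers were used to pair the samples, since the methods describe controls grown in parallel, but the labels name no pairing. Deviations from the group means correlated at 0.31, 0.246, 0.191 and 0.353 between same-numbered libraries. The best differently numbered library reached 0.192, 0.333, 0.15 and 0.311, higher for replicate 2 and close for replicates 3 and 4. Pairing by number is thus not established, and statements on the control of the same number and on the block rest on it. No protein or promoter sequence was used here, so the other papain-family genes were taken by symbol (cpr-9 and tag-196) after the data were seen, in place of a protein search, and other such genes were not analysed here. Gene positions came from the WBcel235 annotation.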

Additional observations from a re-analysis of the deposited data

Results flagged for a closer look

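cpr-3 stood out because its UA effect differed between pairs of replicates in a test of that difference. The log2 fold change in replicates 3 and 4 minus that in replicates 1 and 2 was -0.94 (SE 0.11), and it lay between -1.01 and -0.85 when each library was left out. The adjusted p threshold was passed with all 8 libraries and in 3 of 8 fits with 1 library left out. It was not passed without control 1, control 2, UA library 1, UA library 3 or UA library 4. The within-pair values of cpr-3 were known when the genes were chosen.

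The second result is the level of cpr-8 in UA library 2, 5.97 CPM, which was far below the other 3 UA libraries at 7.24 to 7.49 CPM relative to the range of the group. It rests on 259 counts. Chance marks about 1 in 20 groups in this way, and 20 groups were examined.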

How the results depend on the processing

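Of 150 fold changes of single members over 15 alternatives, 145 kept their direction, and 148 moved by less than 1 SD between replicates. The 5 that changed direction were cpr-5 without control 3 (0.10), control 4 (0.09), UA library 1 (0.09) or UA library 2 (0.06), and cpr-8 in replicates 1 and 2 alone (-0.01). The 2 that moved by more were those of cpr-3 in single replicate pairs, 1.03 and 0.09. The count of members called higher was 2 and became 4 in replicates 1 and 2 alone, and ranged from 1 to 4 with 1 library left out. The count called lower was 0 and became 1 with the replicate block, with a term for the replicate pairs, and in either pair alone. Of inhibitor, lysosome and regulator genes 0 were lower, against 1 with the block, 1 with the pair term, 2 in each pair alone and 0 to 1 with a library left out. Of tissue markers 2 were higher, against 4 in replicates 1 and 2, and 1 was lower, against 2 with the block, 4 in replicates 1 and 2, 2 in replicates 3 and 4 and 0 to 3 with a library left out. Of the other papain-family genes 1 was higher, and 1 to 2 with a library left out (2 without UA library 2). The count of members whose effect differed between replicate pairs was 1, and 0 to 1 with a library left out. The order of levels kept 10 ranks, and 6 to 10 with a control left out (6 without control 2). With the block, the calls that changed were cpr-2, nuc-1 and dpy-7, each then lower, and at an adjusted p under 0.05 cpr-2, cpr-4, cpr-9 and nuc-1. Over all genes edgeR called 565 higher and 213 lower with 13 at an adjusted p under 0.05, against 755, 339 and 115 with the block, 806, 345 and 219 with the pair term, and 169 at that adjusted p in DESeq2. Without a filter 757 were higher, 340 lower and 45 past the adjusted p.

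The comparison of protein and promoter sequences, and its alternative window, were not run. Without cpr-1, an alternative chosen after seeing the data, cpr-3 made up 2.65 and 2.43% of the summed level in UA libraries 1 and 2 against at most 1.57% in the other libraries. Depth limits cpr-2, with 26 counts in its lowest library.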
